A study of Mus musculus with 28 samples.

Results

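MHC class II antigen presentation was followed in mouse hippocampal microglia through 7 genes, chosen by name: H2-Aa, H2-Ab1 and H2-Eb1, which encode chains of the class II molecules, Cd74, which encodes the invariant chain, Ciita, which encodes the class II transactivator, and H2-DMa and H2-DMb1, which encode the chains of the peptide editor H2-DM. All 7 genes had a row in the deposited count table of 48587 genes, and all 7 were among the 15298 genes that passed the low-count filter.

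MHC class II molecules present peptides from endosomes to CD4 T cells. The alpha and beta chains assemble with the invariant chain, which blocks the peptide groove and guides the complex to endosomes, where cathepsins degrade it and H2-DM exchanges its last fragment for antigenic peptides. Ciita is recruited by factors bound to the X and Y boxes of class II promoters and is the master switch of their transcription. Interferon-gamma is its classical inducer. Homeostatic microglia carry little class II, microglia near amyloid plaques are known to carry more, and border-associated macrophages, dendritic cells and B cells carry it constitutively. C57BL/6 mice make no complete H2-E molecule, because their H2-Ea gene is not expressed, while H2-Eb1 is still transcribed.

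Each library held RNA of CD11b+CD45low cells of the hippocampus, sorted by FACS from 1 mouse of 16 weeks, with staining for T cell, B cell, Ly6C and Ly6G markers to leave out other cells. The 5xFAD mice were heterozygous for human APP with the Swedish, Florida and London mutations and human PS1 with familial mutations, both under the neuron-specific Thy-1 promoter, and WT mice were their non-transgenic littermates, all male on a C57BL/6J background. Groups differed by housing: 5 SPF WT and 3 SPF 5xFAD mice were kept under specific pathogen-free conditions, 4 GF WT and 5 GF 5xFAD mice were germ-free, and 5 ABX WT and 6 ABX 5xFAD mice were SPF mice given vancomycin, cefoxitin, gentamicin and metronidazol in the drinking water for 8 weeks. GF mice came from another facility than SPF and ABX mice, so that germ-free housing cannot be told apart from the facility of origin, and the transgene, which is driven in neurons, gives no check of the genotype in microglial RNA.

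Library totals ranged from 14441610 to 29977395 reads, and mice are called by the titles of their samples. Sample descriptions follow 3 numbering styles, not stated to be batches: the first holds all SPF WT and ABX WT mice, the second the 3 SPF 5xFAD mice and mouse FAD_ABX_1151, and the third every GF mouse together with 5 of the 6 ABX 5xFAD mice. Only 5xFAD against WT in GF mice, ABX against SPF in WT mice and, without mouse FAD_ABX_1151, ABX against GF in 5xFAD mice compare groups within 1 style, and in the other comparisons style and group cannot be told apart, except that ABX and SPF 5xFAD mice share a style through mouse FAD_ABX_1151 alone. Mouse FAD_GF_201 is called WT in its description and 5xFAD in its title and genotype. Its summed endosomal processing genes reached 48338 CPM (reads of a gene as a share of the TMM-scaled library total), against 25273 to 31379 CPM in the 14 WT mice and 36993 to 64089 CPM in the 14 5xFAD mice. The 8 microglia markers summed to between 47954 and 63800 CPM in every library, and the B and T cell genes Ms4a1, Cd3e and Cd8a had at most 3 reads in any library. Of the same lists, Cd4 reached 102 reads, Cd79a 10 and Cd3g 5, and Cd4 was called higher in ABX 5xFAD than in ABX WT or GF 5xFAD mice. The B cell gene Cd79b had reads in every library and reached 51.8 CPM, was called in none of the 13 comparisons by edgeR, and the part of these genes was not tested. Markers of other cell types were not all absent. Dendritic cell markers summed to 16.4 to 81.6 CPM. Neutrophil markers reached 56.1 to 225 CPM in the SPF 5xFAD mice and 115 CPM in mouse FAD_ABX_1151, against at most 0.289 CPM elsewhere. Border-associated macrophage markers (Mrc1, Cd163, Lyve1, Pf4, Ms4a7, F13a1 and Cbr2) summed to 3.38 to 7.71 CPM in the SPF WT and ABX WT mice and reached 259 CPM in ABX 5xFAD mice. In bulk RNA, fewer cells of a type and less RNA per cell cannot be told apart.

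In GRCm38 coordinates of the count table, 5 of the genes lie on chromosome 17, with H2-DMa at chr17:34135182-34139101, H2-DMb1 at chr17:34153072-34160230, H2-Ab1 at chr17:34263209-34269418 and H2-Eb1 at chr17:34305877-34316199 on the plus strand and H2-Aa at chr17:34282744-34287827 on the minus strand. Ciita lies at chr16:10488178-10527564 on the plus strand. Ciita shares 111 exon bases with Dexi on the opposite strand, which had 299 to 703 reads in a library. The library kit does not mark the strand, so reads there cannot be assigned to either gene. H2-DMb1 is nearly identical to its neighbour H2-DMb2, which had a mean between 7.82 and 11.7 CPM in the 6 groups, and the split between both is uncertain.

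Promoters are shown for H2-Aa and H2-Eb1, because these genes had the widest range on the log2 scale, with low ends that rest on 1 and 4 reads. RefSeq windows of 300 bases (250 before to 50 after the start, GRCm38.p6) were given for 4 of the 7 genes, H2-Aa, H2-Eb1, H2-DMa and H2-DMb1, and not for H2-Ab1, Ciita and Cd74. The Y box core ATTGG and the X box core ACNGATG were searched on both strands in each window. The stretches below run from 130 to 31 bases before the start, 5′ to 3′ on the strand of the gene, at chr17:34287854-34287953 for H2-Aa and chr17:34305737-34305836 for H2-Eb1, and capitals mark the motif matches.
H2-Aa: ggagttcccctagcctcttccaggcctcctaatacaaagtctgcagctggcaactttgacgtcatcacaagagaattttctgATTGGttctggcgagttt
H2-Eb1: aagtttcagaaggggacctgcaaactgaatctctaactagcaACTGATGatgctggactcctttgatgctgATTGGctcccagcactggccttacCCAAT
H2-Eb1 held the X box core 88 bases and the Y box core 59 bases before the start, with 22 bases between them, and a second Y box core on the opposite strand at 35 bases. H2-Aa held the Y box core at 48 bases and no match to the X box core in this stretch, with 1 match on the opposite strand at 232 bases. H2-DMb1 held the X box core at 91 bases and the Y box core at 61 bases before the start, 23 bases apart. The windows of H2-DMa, at chr17:34122582-34122881 and chr17:34125268-34125567, lie upstream of the start in the count table, and the sequence at that start was not searched. The first held neither motif and the second the Y box core at 198 bases. Among 32817 promoter windows, 37.4% held ATTGG, 9.85% held ACNGATG, and 0.195% held the X box core followed by the Y box core on the same strand with 10 to 35 bases between them. A match of letters is a description and no sign of binding.

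The 7 genes fell into different ranges of level and spread. H2-DMa and H2-DMb1 were expressed in every mouse within a narrow range, from 162 to 432 CPM for H2-DMa and from 90.6 to 173 CPM for H2-DMb1. Cd74, on chromosome 18, ranged from 13.7 to 1028 CPM, H2-Ab1 from 6.66 to 414 CPM, H2-Eb1 from 0.238 to 224 CPM and H2-Aa from 0.0408 to 239 CPM. Ciita was low throughout, with 0 to 121 reads in a library and at most 4.94 CPM, so that single reads weigh in its values. Within groups, the SD of log2 CPM between mice was 1.37 for H2-Aa, 1.31 for H2-Eb1, 1.15 for Ciita, 0.96 for H2-Ab1 and 0.92 for Cd74. It was 0.20 for H2-DMa and 0.17 for H2-DMb1, against a median of 0.33 over all tested genes. Among the 500 genes nearest in level, the SD lay at percentile 100 for H2-Aa, H2-Ab1 and Cd74, 99.8 for H2-Eb1, 78.6 for H2-DMa, 78 for Ciita and 50.8 for H2-DMb1.

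**Figure D1:**
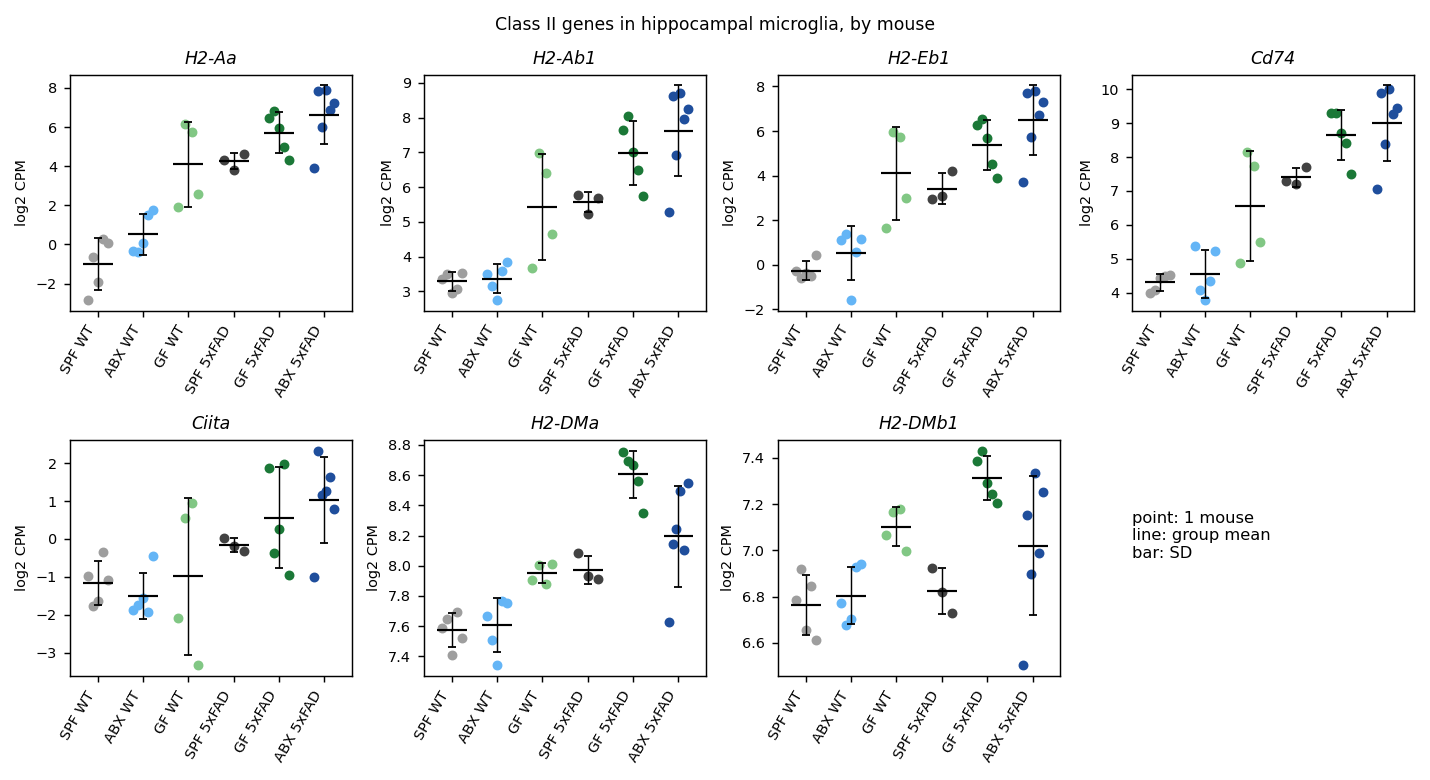
Log2 CPM of the 7 genes (y axis) in the 6 groups (x axis), with 1 point per mouse, a line at the group mean and bars for the SD. H2-Aa, H2-Ab1, H2-Eb1 and Cd74 were low in SPF WT and ABX WT mice, split into high and low mice in GF WT, and spread widely in GF and ABX 5xFAD mice, while the axes of H2-DMa and H2-DMb1 cover less than 2 log2 units.

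H2-Aa and H2-Eb1 were low in the SPF WT and ABX WT mice, with 1 to 99 and 4 to 64 reads. In the 5 SPF WT mice, H2-Aa had 0.0408, 0.168, 0.537, 0.936 and 1.12 CPM, values that rest on 1 to 26 reads. The 5 ABX WT mice had 0.661, 0.687, 0.951, 2.77 and 3.26 CPM and overlapped with them. H2-Eb1 ranged from 0.576 to 1.26 CPM in SPF WT and from 0.238 to 2.51 CPM in ABX WT mice. H2-Ab1 had a higher floor, with 7.6 to 11.5 CPM in SPF WT and 6.66 to 14.3 CPM in ABX WT mice, and so had Cd74, with 15.7 to 23 CPM and 13.7 to 41.2 CPM.

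Proportions between chains were compared per length of the exons. Per kilobase, H2-Aa amounted to a median of 4.17% of H2-Ab1 in SPF WT and 12.5% in ABX WT mice. It amounted to 36.9% in GF WT mice, and among 5xFAD mice to 32.3% (SPF), 37.6% (GF) and 44.5% (ABX). No test was run on these shares, and those of SPF WT mice rest on the few reads of H2-Aa. H2-Ab1 itself amounted to a median between 21.9% and 42.9% of Cd74 in the 6 groups. On the same scale the peptide editor lay above the chains in SPF WT mice, with 116 ± 8.78 CPM per kilobase of H2-DMa (SD, n = 5) against 5.97 ± 1.06 of H2-Ab1. H2-DMb1 amounted to 54.7% to 70.9% of H2-DMa in the 14 WT mice and to 42.5% to 55.7% in the 14 5xFAD mice.

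Germ-free WT mice asked whether the lifelong absence of microbes goes with a different class II level where the transgenes are missing. They also differ from SPF WT mice in facility and numbering style, so the comparison cannot answer this for microbes alone. Compared with SPF WT mice, 4 of the 7 genes rose: H2-Aa, H2-Eb1, Cd74 and H2-Ab1. The 4 GF WT mice were not alike, and the rise was carried mostly by mice WT_GF_229 and WT_GF_230. H2-Aa had 71.4 and 52.8 CPM in these mice and 3.63 and 5.86 CPM in mice WT_GF_199 and WT_GF_231, all above the highest SPF WT mouse (1.12 CPM). Cd74 had 284 and 214 CPM against 29.2 and 44.9 CPM, H2-Ab1 128 and 84.2 CPM against 12.8 and 25 CPM, and H2-Eb1 62.1 and 53.8 CPM against 3.09 and 7.99 CPM. For H2-Aa, mice WT_GF_229 and WT_GF_230 lay above the 3 SPF 5xFAD mice, which had 13.9 to 24.5 CPM, and mice WT_GF_199 and WT_GF_231 below them.

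By edgeR's quasi-likelihood test with Benjamini-Hochberg adjustment over all tested genes, which is used for every adjusted p of a difference between groups below, the log2 fold change was 5.87 ± 0.89 (SE) for H2-Aa (adjusted p = 0.00109) and 5.36 ± 0.84 for H2-Eb1 (adjusted p = 0.00115). It was 2.84 ± 0.53 for Cd74 (edgeR, adjusted p = 0.00713) and 2.67 ± 0.54 for H2-Ab1 (adjusted p = 0.011). In this comparison 1.62% of all tested genes were called and 0.869% were called higher. H2-DMa (0.38 ± 0.12, edgeR adjusted p = 0.11), H2-DMb1 (0.34 ± 0.11, 0.119) and Ciita (1.12 ± 0.79, 0.518) did not pass. Under alternative settings or sets of mice, H2-DMa passed in 5 and H2-DMb1 in 4. Both groups were free of overlap for 6 of the 7 genes, all but Ciita, and for 10.7% of all genes. For H2-Aa an exact two-sided permutation test of the log2 values gave p = 0.0159 with 4 against 5 mice, the smallest these groups allow. Without mouse WT_GF_229, H2-Ab1 no longer passed (edgeR adjusted p = 0.0943), and with limma's voomWithQualityWeights H2-Aa did not (adjusted p = 0.0535). Of the 7 border-associated macrophage markers, 5 were also called higher in GF WT than in SPF WT mice. Their sum was 43.1 and 38.7 CPM in mice WT_GF_229 and WT_GF_230 and 25.4 and 10.5 CPM in mice WT_GF_199 and WT_GF_231, against 3.38 to 7.71 CPM in SPF WT mice, and their part in the result was not tested.

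Antibiotics asked the same question for the adult loss of microbes. In WT mice they went with no called difference in any of the 7 genes against SPF mice, with 0% of all genes called by edgeR and 0 of the 7 genes at an unadjusted p under 0.05, and both groups overlapped in all 7, where 1.26% of all genes did not. DESeq2 and voomWithQualityWeights also called 0 of the 7. The log2 fold changes were 1.64 ± 1.00 for H2-Aa, 1.13 ± 0.93 for H2-Eb1, 0.38 ± 0.50 for Cd74 and 0.12 ± 0.53 for H2-Ab1, so that for H2-Aa the error leaves room for a difference in either direction at this low level. Against GF WT mice, the ABX WT mice had less of the 4 genes that were high there, and 6.88% of all genes were called and 4.48% were called lower. Both groups were free of overlap for H2-Aa, H2-Eb1, H2-DMa and H2-DMb1, 4 of the 7, and for 10.9% of all genes. H2-Eb1 was lower by 4.23 ± 0.77 on the log2 scale (edgeR adjusted p = 0.00257), H2-Aa by 4.22 ± 0.79 (0.00299), H2-Ab1 by 2.54 ± 0.54 (0.00607) and Cd74 by 2.46 ± 0.52 (0.00581). With voomWithQualityWeights, H2-Aa (adjusted p = 0.116) and H2-Eb1 (0.101) did not pass. By edgeR, H2-DMa (-0.34 ± 0.12, adjusted p = 0.0959), H2-DMb1 (-0.30 ± 0.11, 0.111) and Ciita (-1.49 ± 0.81, 0.281) did not pass. Under alternative settings or sets of mice, H2-DMa passed in 4 and H2-DMb1 in 3. Here 5 of the 7 border-associated macrophage markers were called lower, with 3.57 to 5.83 CPM in ABX WT and 10.5 to 43.1 CPM in GF WT mice, and their part was not tested.

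**Figure D2:**
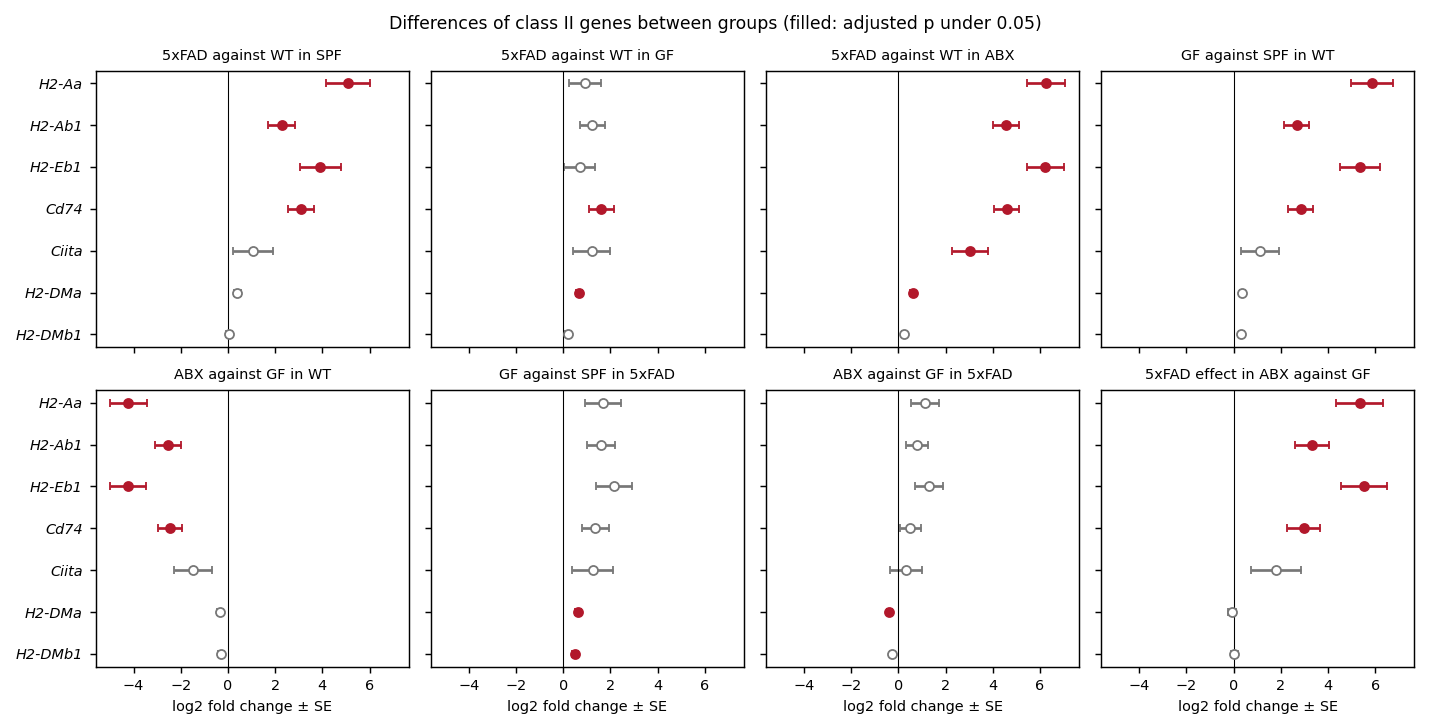
Log2 fold changes ± SE (x axis) of the 7 genes (y axis) in 8 comparisons, 1 panel each. Filled red points passed an adjusted p of 0.05, as H2-Aa at 5.08 in SPF mice and 6.25 in ABX mice did, and open points did not, as H2-Aa at 0.91 in GF mice.

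The 5xFAD genotype was compared with WT within each housing condition. In SPF mice, 4 of the 7 genes rose: H2-Aa 33.8-fold, H2-Eb1 15-fold, Cd74 8.58-fold and H2-Ab1 4.87-fold. H2-Aa had 13.9, 19.6 and 24.5 CPM in the 3 SPF 5xFAD mice, all above the 5 SPF WT mice. Cd74 had 148, 155 and 210 CPM, H2-Ab1 37.7, 51.1 and 54.6 CPM and H2-Eb1 7.55, 8.51 and 18.6 CPM. The groups overlapped for none of these 4 genes, nor for Ciita and H2-DMa, and over all genes 16.9% did not overlap.

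On the log2 scale the rises were 5.08 ± 0.92 for H2-Aa (edgeR adjusted p = 0.000464), 3.91 ± 0.87 for H2-Eb1 (0.00464), 3.10 ± 0.55 for Cd74 (0.000386) and 2.28 ± 0.57 for H2-Ab1 (0.013), where 4.57% of all genes were called and 3.73% were called higher. H2-DMa (0.40 ± 0.13, edgeR adjusted p = 0.0961), Ciita (1.07 ± 0.85, 0.69) and H2-DMb1 (0.06 ± 0.12, 0.928) did not pass. H2-Ab1 lost its call without mouse FAD_SPF_1144 (edgeR adjusted p = 0.0625), and H2-Eb1 under voomWithQualityWeights (adjusted p = 0.0794). The exact permutation test gave p = 0.0357 for each of the 4 genes, the smallest that 3 against 5 mice allow. Markers of other cells moved here as well: 5 of 7 border-associated macrophage markers (16.5 to 29 against 3.38 to 7.71 CPM) and 4 of 5 neutrophil markers were called higher. Of the dendritic cell markers 0 of 7 were called by edgeR and 3 had an unadjusted p under 0.05, with sums of 16.4 to 23.4 CPM in SPF 5xFAD below the 26.5 to 31.8 CPM in SPF WT mice, and the part of these lists was not tested.

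In ABX mice, 6 of the 7 genes rose. H2-Aa rose 76.3-fold, H2-Eb1 75-fold, Cd74 24-fold, H2-Ab1 23.7-fold, Ciita 8.15-fold and H2-DMa 1.53-fold. Mouse FAD_ABX_1151 stood apart from the other 5. It had 14.8 CPM of H2-Aa, 38.6 of H2-Ab1, 13.2 of H2-Eb1 and 132 of Cd74, values close to those of SPF 5xFAD mice. H2-Aa had 64, 117, 151, 232 and 239 CPM in mice FAD_ABX_1453, FAD_ABX_1460, FAD_ABX_1482, FAD_ABX_1452 and FAD_ABX_1455, and Cd74 had 333, 610, 692, 939 and 1028 CPM in the same order. In that order H2-Ab1 had 122, 247, 304, 392 and 414 CPM and H2-Eb1 52.6, 107, 157, 205 and 224 CPM, so that mice FAD_ABX_1452 and FAD_ABX_1455 were highest in each of these genes. Ciita had 0.395, 1.63, 2.14, 2.31, 3.02 and 4.94 CPM over the 6 mice against 0.163 to 0.626 CPM in ABX WT mice, with overlap through mouse FAD_ABX_1151. All 6 mice lay above the 5 ABX WT mice in the 4 genes H2-Aa, H2-Ab1, H2-Eb1 and Cd74, where 6.92% of all genes did not overlap.

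By edgeR the log2 fold changes were 6.25 ± 0.81 for H2-Aa (adjusted p = 1.58e-06), 6.23 ± 0.79 for H2-Eb1 (1.25e-06), 4.58 ± 0.54 for Cd74 (4.12e-07) and 4.57 ± 0.56 for H2-Ab1 (6.92e-07), where 14.4% of all genes were called and 9.45% were called higher. Ciita, with 7 to 121 reads in ABX 5xFAD against 3 to 19 in ABX WT mice, had 3.03 ± 0.77 (edgeR adjusted p = 0.00764), and H2-DMa 0.61 ± 0.11 (0.000327). H2-DMb1 had 0.24 ± 0.10 (edgeR adjusted p = 0.127), and passed without mouse FAD_ABX_1151 (adjusted p = 0.00896). All 7 border-associated macrophage markers were called higher here, with sums of 33.3 to 259 CPM against 3.57 to 5.83 CPM, as were the dendritic cell markers Flt3, Clec9a and Cd209a of 7 in that list, and the part of either was not tested. Dendritic cell markers summed to 22.7 to 81.6 CPM in ABX 5xFAD against 25.8 to 31.9 CPM in ABX WT mice. The neutrophil signal of this group came from mouse FAD_ABX_1151, and the other 5 mice had at most 0.289 CPM.

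In GF mice, 2 of the 7 genes rose, Cd74 3.06-fold and H2-DMa 1.58-fold. The 5 GF 5xFAD mice had 20, 31.6, 60.9, 88.6 and 113 CPM of H2-Aa, which overlapped with the high GF WT mice at 52.8 and 71.4 CPM. H2-Ab1 had 53.4, 90, 128, 199.3 and 263 CPM against 12.8 to 128 CPM. Cd74 had 181.9, 341, 414, 623 and 627 CPM against 29.2 to 284 CPM, and 4 of the 5 mice lay above the highest GF WT mouse. H2-Eb1 had 14.6, 22.6, 51.7, 77.2 and 91.7 CPM against 3.09 to 62.1 CPM. Ciita had 0.415, 0.681, 1.10, 3.58 and 3.88 CPM against 0 to 1.82 CPM, with overlap. H2-DMa had 326 to 432 CPM against 236 to 258 CPM. For H2-DMa and H2-DMb1, 2 of the 7 genes, the groups did not overlap, and neither did they for 14.9% of all genes.

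Cd74 rose by 1.61 ± 0.52 on the log2 scale (edgeR adjusted p = 0.0328) and H2-DMa by 0.66 ± 0.13 (0.000373), where 15.6% of all genes were called and 9.43% were called higher. H2-Ab1 (1.24 ± 0.53, edgeR adjusted p = 0.115), H2-Aa (0.91 ± 0.67, 0.403), H2-Eb1 (0.70 ± 0.65, 0.529), Ciita (1.21 ± 0.79, 0.332) and H2-DMb1 (0.21 ± 0.11, 0.233) did not pass. H2-Ab1 passed under 1 alternative setting or set of mice, and ranged from 0.90 to 1.85 without single mice. The call of Cd74 was lost without mouse WT_GF_199 or WT_GF_231 and without mouse FAD_GF_181 or FAD_GF_182, with the highest edgeR adjusted p at 0.116. Of the border-associated macrophage markers 0 of 7 were called here by edgeR and 1 had an unadjusted p under 0.05, with sums of 10.8 to 84.9 CPM against 10.5 to 43.1 CPM, while 2 of 7 dendritic cell markers, Cd209a and Ccr7, were called higher with a list median log2 fold change of -0.29 and overlapping sums of 31.6 to 48.1 against 31.3 to 37.4 CPM, and their part was not tested. In GF 5xFAD mice, H2-Aa, H2-Ab1, H2-Eb1 and Cd74 summed to 1095 CPM beside 10.8 CPM of the border-associated macrophage markers in mouse FAD_GF_182, 485 beside 13.7 in FAD_GF_185, 655 beside 25.5 in FAD_GF_184, 988 beside 57.9 in FAD_GF_181 and 270 beside 84.9 in FAD_GF_201, the mouse with conflicting labels. The class II sum divided by the marker sum had a median of 5.92 (SPF WT), 7.89 (ABX WT) and 9.21 (GF WT). In 5xFAD mice its median was 11.6 (SPF), 7.37 (ABX) and 25.6 (GF, from 3.18 to 101), and no test was run on it. Averaged over the 3 conditions, 6 of the 7 genes were higher in 5xFAD mice, where 25.1% of all genes were called and 14.3% were called higher, and H2-DMb1 did not pass (0.17 ± 0.07 on the log2 scale, edgeR adjusted p = 0.0586). H2-DMb1 passed under 12 alternative settings or sets of mice, as without mouse FAD_ABX_1151 (edgeR adjusted p = 0.00574). All 7 border-associated macrophage markers were called higher in that average, and their part was not tested.

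The test of the difference between conditions compared the 5xFAD effects themselves. The effect was larger in ABX than in GF mice for H2-Eb1 (5.53 ± 0.97 on the log2 scale, edgeR adjusted p = 0.00685), H2-Aa (5.34 ± 0.99, 0.00691), H2-Ab1 (3.33 ± 0.72, 0.0175) and Cd74 (2.97 ± 0.69, 0.027), where 1.76% of all genes were called and 0.915% were called in that direction. It combines the lower level of ABX WT than GF WT mice with the levels of the 5xFAD groups, in which none of these 4 genes differed by a called amount. With voomWithQualityWeights none of the 4 passed (adjusted p from 0.0887 to 0.143). Without mouse WT_GF_229, 2 of the 4 calls were left. All 7 border-associated macrophage markers had a difference of effects called in the same direction, and their part was not tested.

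Neither the effect in GF against SPF mice nor that in ABX against SPF mice differed by a called amount for any of the 7 genes, and 0% of all genes were called. In GF against SPF mice, 2 of the 7 had an unadjusted p under 0.05, H2-Aa with -4.16 ± 1.15 (edgeR adjusted p = 0.321) and H2-Eb1 with -3.21 ± 1.09 (0.449). In ABX against SPF mice it was 1, H2-Ab1 with 2.28 ± 0.78 (edgeR adjusted p = 0.704). DESeq2 and voomWithQualityWeights called 0 of the 7 in both.

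Among 5xFAD mice, the question was whether housing or antibiotics went with another class II level under the same transgenes. Between GF and SPF mice, the peptide editor rose, H2-DMa 1.55-fold and H2-DMb1 1.40-fold, and the groups did not overlap in either gene, as in 19.6% of all genes. H2-DMa had 326, 377, 406, 413 and 432 CPM in GF and 241, 244 and 271 CPM in SPF mice. H2-DMb1 had 148, 151, 156, 167 and 173 CPM against 106, 113 and 121 CPM. The log2 fold changes were 0.64 ± 0.14 (edgeR adjusted p = 0.00422) and 0.49 ± 0.13 (0.0117), where 12.8% of all genes were called and 6.97% were called higher. All 4 tested neutrophil markers were called lower and 0 of 7 border-associated macrophage markers were called by edgeR (1 at an unadjusted p under 0.05). Of the dendritic cell markers 1 of 7, Cd209a, was called higher and 4 had an unadjusted p under 0.05, with sums of 31.6 to 48.1 CPM in GF and 16.4 to 23.4 CPM in SPF mice, without overlap, and the part of these markers was not tested. H2-DMb1 lost its call without mouse FAD_SPF_1148 (edgeR adjusted p = 0.0934) or mouse FAD_SPF_1146 (adjusted p = 0.0664), where the calls over all genes fell from 1962 to 547 and 680.

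H2-Eb1 (2.16 ± 0.78, edgeR adjusted p = 0.0646), H2-Ab1 (1.62 ± 0.59, 0.0702), Cd74 (1.35 ± 0.57, 0.12) and H2-Aa (1.70 ± 0.77, 0.148) had higher means in GF 5xFAD than in SPF 5xFAD mice and did not pass. The GF mice overlapped with SPF mice through mouse FAD_GF_201 for these 4 genes. Passing depended on the processing: a fit of only these 2 groups called 6 of the 7 genes and 1551 of 13737 tested genes, and DESeq2 called 4 of the 7 and 2492 of 15298. Without mouse FAD_GF_201, without mouse WT_GF_199 or without mouse FAD_ABX_1151, which is in neither group, 4 were called, among 2167, 2008 and 2148 genes in all.

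Between ABX and SPF 5xFAD mice, 0 of the 7 genes and 0% of all genes were called by edgeR, while 4 of the 7 had an unadjusted p under 0.05, DESeq2 called 1 of the 7 and 8 of all genes, and voomWithQualityWeights 2 of the 7 and 134 of all genes. In 0 of the 7 were the groups free of overlap, against 2.39% of all genes. The differences were 3.46 ± 0.82 on the log2 scale for H2-Eb1 (edgeR adjusted p = 0.383), 2.82 ± 0.80 for H2-Aa (0.536), 2.40 ± 0.61 for H2-Ab1 (0.434) and 1.86 ± 0.58 for Cd74 (0.58). In each of H2-Aa and Cd74, 5 of the 6 ABX mice lay above the highest SPF mouse, mouse FAD_ABX_1151 being the exception. Without that mouse H2-Eb1 (3.68, edgeR adjusted p = 0.024) and H2-Ab1 (2.62, 0.0261) were called, among 59 genes in all. Of the border-associated macrophage markers 0 of 7 were called by edgeR and 7 had an unadjusted p under 0.05, with sums of 33.3 to 259 CPM in ABX and 16.5 to 29 CPM in SPF mice, without overlap. Of the dendritic cell markers 0 of 7 were called and 5 had an unadjusted p under 0.05, with sums of 22.7 to 81.6 against 16.4 to 23.4 CPM, and the part of either list was not tested. Without mouse FAD_ABX_1151, the ABX and SPF mice share no numbering style, so style and treatment cannot be told apart.

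Between ABX and GF 5xFAD mice, H2-DMa was lower in ABX mice, by 0.39 ± 0.11 on the log2 scale (edgeR adjusted p = 0.0248), where 10.6% of all genes were called and 6.07% were called lower. The ABX mice had 198, 275, 282, 303, 361 and 375 CPM against 326 to 432 CPM in GF mice. The groups overlapped in all 7 genes, where 2.82% of all genes did not overlap. Without mouse FAD_ABX_1151, which leaves mice of the third numbering style alone, it was lower by 0.28 and did not pass (edgeR adjusted p = 0.0673), and it did not pass with only these groups in the fit (adjusted p = 0.169). H2-Aa (1.12 ± 0.60, edgeR adjusted p = 0.243), H2-Eb1 (1.30 ± 0.59, 0.159), H2-Ab1 (0.79 ± 0.46, 0.296) and Cd74 (0.51 ± 0.45, 0.524) had higher means in ABX mice without passing. The border-associated macrophage marker Mrc1 was the 1 of 7 called higher in ABX than in GF 5xFAD mice, while 6 of the 7 had an unadjusted p under 0.05. The dendritic cell marker Flt3, the monocyte marker Chil3 and Cd4 were called higher too, and so were 3 of 4 tested neutrophil markers, with reads in mouse FAD_ABX_1151, and their part was not tested.

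The order of the groups was read from mean log2 CPM. For H2-Aa it ran from SPF WT over ABX WT, GF WT, SPF 5xFAD and GF 5xFAD to ABX 5xFAD, and H2-Ab1 and Cd74 had the same order. For H2-Eb1, SPF 5xFAD lay below GF WT. GF 5xFAD came last for H2-DMa and H2-DMb1. Neighbours in the order overlapped in range, other than ABX WT below GF WT for H2-Aa and for H2-DMa (a pair that did not overlap in 10.9% of all genes), GF WT below GF 5xFAD for H2-DMb1 (14.9% of all genes) and ABX WT below SPF 5xFAD for H2-Eb1, a pair not compared over all genes.

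Levels of the class II genes varied together among the mice of a group. After group means were removed, H2-Ab1 and Cd74 deviated together over the 28 mice with Pearson's r = 0.941 (adjusted p = 7e-05 by permutation within groups, from the smallest p these could give), Spearman's rho = 0.894 (adjusted permutation p = 0.000105) and r = 0.905 without the 2 mice farthest from the median of H2-Ab1. The 6 pairs among H2-Aa, H2-Ab1, H2-Eb1 and Cd74 had r between 0.787 and 0.941, the 4 pairs of these genes with Ciita between 0.599 and 0.722, and H2-DMa with H2-DMb1 0.854. Over 21 pairs, 20 had an adjusted p under 0.05 for Pearson's r and 16 for Spearman's rho. Ciita and H2-DMa (r = 0.312, adjusted p = 0.125 by permutation, rho = 0.132) did not. Without ABX 5xFAD mice FAD_ABX_1151 and FAD_ABX_1482, r still reached 0.924 for H2-Ab1 and Cd74, and 12 of the 21 pairs passed, none of them with Ciita. All values of a mouse share 1 library. The mean standardised deviation of H2-Aa, H2-Ab1 and Cd74 had r = 0.228 with the library total (permutation p = 0.288, adjusted 0.335, rho = 0.29) and r = -0.471 with the TMM factor (permutation p = 0.0129, adjusted 0.0515, rho = -0.493 with an adjusted permutation p = 0.0355), or -0.391 without the 2 mice farthest from the median TMM factor, and the part of the scaling in the co-variation was not tested.

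**Figure D3:**
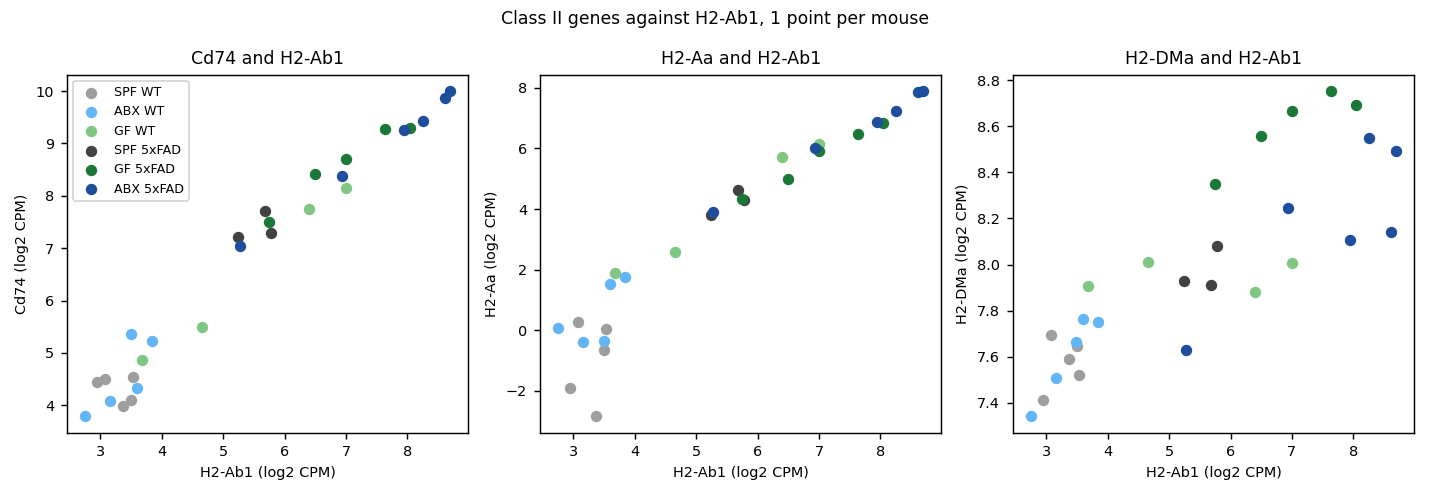
Log2 CPM of Cd74, H2-Aa and H2-DMa (y axes) against H2-Ab1 (x axis), with 1 point per mouse coloured by group. Cd74 and H2-Aa follow H2-Ab1 across mice, with r of their deviations from group means at 0.941 and 0.867, while H2-DMa covers a small range.

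The 10 genes whose deviations were most like those of H2-Aa, H2-Ab1 and Cd74 over the 28 mice, among 15291 genes other than the 7, were Sirpb1a (r = 0.82), Fam195b (0.819), Mbd3 (0.773), Chrac1 (0.759), Pomc (0.758), Mgl2 (0.748), Afm (0.748), Smpd4 (0.743), Ccdc12 (0.733) and Sdhb (0.731). None of them is in the short marker lists used here, while Mgl2 is known from macrophages and dendritic cells. In those lists r ranged from 0.019 (Lyve1) to 0.554 (Cd163) for border-associated macrophage markers, from -0.24 (Zbtb46) to 0.547 (Cd209a) for dendritic cell markers and from -0.53 (Chil3) to 0.652 (Ccr2) for monocyte markers, and the part of other cells was not tested. Over the 26 mice without FAD_ABX_1151 and FAD_ABX_1482, the r of the 10 most alike genes fell to between 0.626 and 0.785.

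Of the factors that occupy the X and Y boxes, Rfx5, Rfxap, Rfxank, Nfya, Nfyb, Nfyc and Creb1, 0 of 7 were called by edgeR between 5xFAD and WT mice in SPF, GF or ABX mice, with 1, 0 and 2 at an unadjusted p under 0.05, where 4.57%, 15.6% and 14.4% of all genes were called. Rfx5, a subunit of the factor that binds the X box, had means between 20.3 and 24.7 CPM in the 6 groups. Ifng itself had 0 reads in all 28 libraries. Ifngr1, the ligand-binding chain of its receptor, fell by 0.40, 0.42 and 0.40 on the log2 scale for SPF, GF and ABX, and Ifngr2, the other chain, rose by 0.22 (GF) and 0.24 (ABX) and had 0.08 (SPF) without passing. Irf1, which acts on a Ciita promoter, had -0.37, -0.38 and -0.14 without passing. Of 7 tested genes of the interferon-gamma receptor pathway, some not named here, 1 was called higher and 1 lower in SPF mice. The calls were 2 higher and 2 lower in GF and 2 higher and 1 lower in ABX mice, against the same shares of all genes.

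Of 7 endosomal genes that prepare the peptides and degrade the invariant chain, 3 rose and 1 fell among SPF mice, 4 rose among GF mice, and 4 rose and 1 fell among ABX mice of the 5xFAD genotype, where 3.73%, 9.43% and 9.45% of all genes were called higher. Ctsb rose by 1.34, 1.62 and 1.22, Ctsd by 1.06, 1.38 and 1.03 and Ctsl by 0.87, 1.34 and 0.94 on the log2 scale. Ctss, which makes the last cut of the invariant chain in many antigen-presenting cells, rose by 0.58 in GF and 0.28 in ABX mice and had 0.22 in SPF mice without passing. Lgmn fell by 0.62 in SPF mice, and Sppl2a, which cleaves the remaining fragment of Cd74 in the membrane, fell by 0.38 in ABX mice. In GF WT mice, where the class II chains were high, 0 of these 7 enzymes were called higher by edgeR than in SPF WT mice and Sppl2a was lower by 0.57, while 3 of the 7 had an unadjusted p under 0.05 in either direction.

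Of 3 other class II genes tested, H2-Oa, H2-Ob and H2-DMb2, none rose among SPF mice, 2 rose among GF mice and 1 among ABX mice, against 3.73%, 9.43% and 9.45% of all genes called higher. H2-Oa, which encodes a chain of the H2-DM inhibitor H2-O, rose by 1.06 in GF and 0.70 in ABX mice, and H2-Ob rose by 0.74 in GF mice. H2-Eb2 had at most 4 reads in a library and was not tested. For the surface, March8, a ubiquitin ligase, rose by 0.36 in ABX mice and had 0.45 (SPF) and 0.12 (GF) without passing, and March1, which turns over surface class II, was called in none of the 3 conditions by edgeR, with -0.23, -0.41 and -0.12 for SPF, GF and ABX, and was called lower in their average. Of the costimulators, Cd86 had -0.06, -0.08 and -0.03 and Cd80 -0.18, -0.21 and -0.32, without passing. Cd274, which encodes the inhibitory ligand PD-L1, rose by 1.08, 1.66 and 1.29, and Icosl fell by 0.69 in SPF mice. Mif, a ligand of Cd74, rose by 1.38, 1.58 and 1.46, and Cd44, its co-receptor, by 3.00, 2.95 and 2.31, while Ddt, another ligand, had 0.08, 0.21 and 0.19 without passing. MHC class I genes were followed beside them, and of 9 genes 4 rose among SPF mice, 6 among GF mice and 8 among ABX mice, where 3.73%, 9.43% and 9.45% of all genes were called higher. H2-K1, which encodes a class I heavy chain, rose by 0.93, 1.43 and 1.06, and Nlrc5, the class I transactivator, by 1.94 in SPF and 1.89 in ABX mice.

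**Figure D4:**
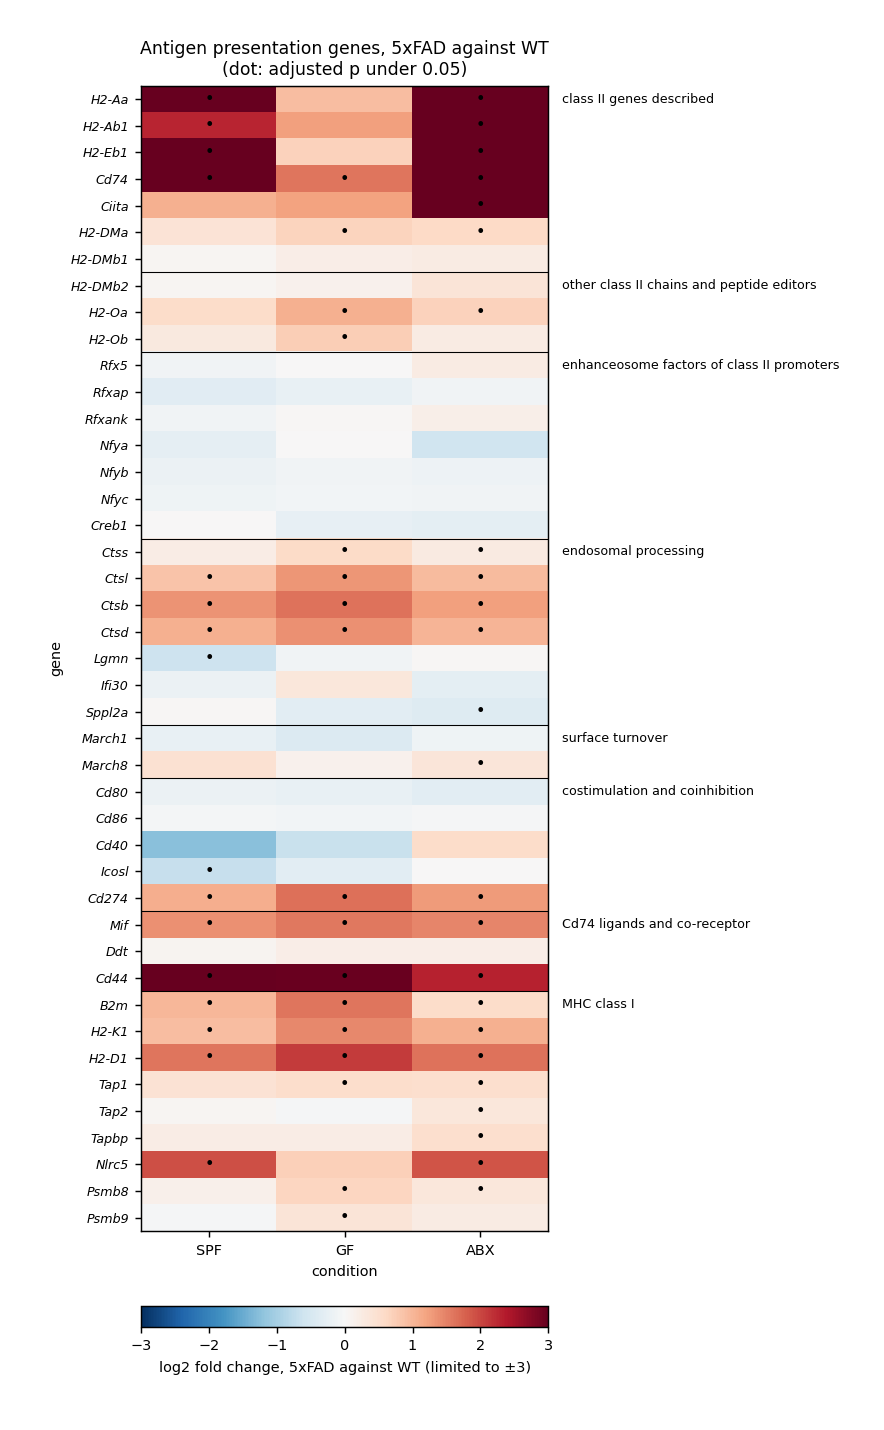
Log2 fold changes of 5xFAD against WT (colour, limited to 3 in each direction) for antigen presentation genes (rows), without the interferon-gamma receptor pathway, in SPF, GF and ABX mice (columns), where a dot marks an adjusted p under 0.05. Ctsb, Ctsd, H2-D1, Cd274, Mif and Cd44 carry a dot in all 3 columns, the X and Y box factors in none, and H2-Aa in the SPF and ABX columns.

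**Figure D5:**
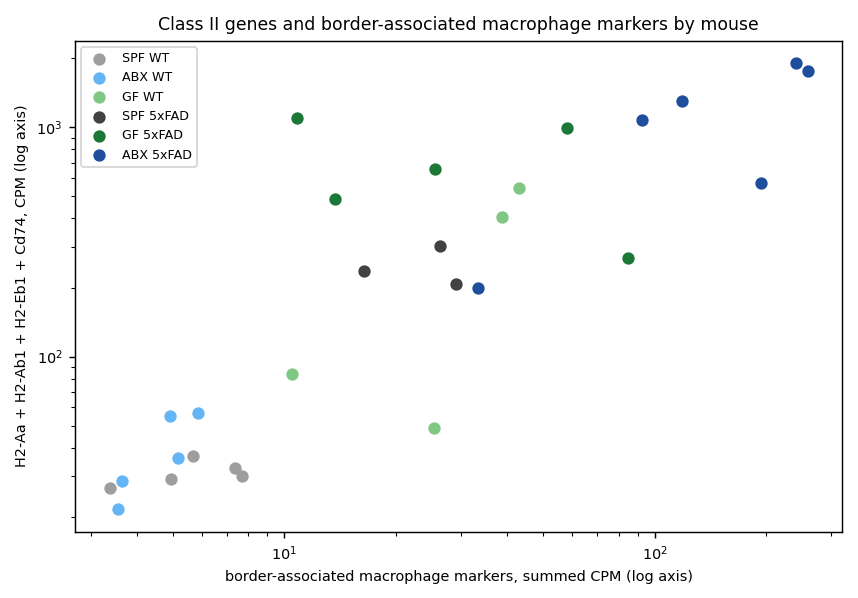
Summed CPM of H2-Aa, H2-Ab1, H2-Eb1 and Cd74 (y axis, log scale) against the summed CPM of 7 border-associated macrophage markers (x axis, log scale), with 1 point per mouse coloured by group. The SPF WT and ABX WT mice lie at the lower left and the ABX 5xFAD mice other than FAD_ABX_1151 at the upper right, and the GF 5xFAD mice range from 270 to 1095 CPM of the class II genes at 10.8 to 84.9 CPM of the markers.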

How the data were processed

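The authors mapped single-end reads of 28 libraries (SMARTer Ultra Low Input v4 and Nextera XT) to GRCm38, and featureCounts gave the counts per gene that were deposited, without normalization. The submitters' processing notes name STAR 2.7.2 and featureCounts 1.6.2, and a human genome build that the mouse genes of the table do not match. The start and end of 84% of the 48587 genes equalled those in GENCODE M21, which the study's methods name. The gene lengths used for values per kilobase are summed exon lengths, another column the authors deposited.

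The 92 spike-in entries were left out. Genes were kept by filterByExpr (minimum count 10, minimum total 15), scaled by TMM and tested with the quasi-likelihood test of edgeR 4.0.16 in R 4.3.3, with 1 term per group over 28 mice and Benjamini-Hochberg adjustment over 15298 genes. The threshold was an adjusted p of 0.05, and log2 CPM had a prior count of 2. Of 63 exact two-sided permutation tests of the 7 genes between 2 groups, 31 had p under 0.05 and 0 an adjusted p under 0.05, and the smallest p that any 2 of these groups allowed was 0.00433. Correlations used 100000 permutations within groups. The steps were tested on simulated data. Alternatives were RLE factors, library size alone, the table without a low-count filter, a stricter filter of 10 counts in each library, DESeq2 1.42.0, voomWithQualityWeights of limma 3.58.1, which the study used, a fit of only the groups compared, 26 mice without FAD_ABX_1151 and FAD_ABX_1482 (a set taken from an earlier analysis of these data), and leaving out each mouse.

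Genes named are the 7, those of fixed lists and the 10 most like them. The 7 genes, the lists and the alternatives were chosen with earlier results of these data known. At these depths, spread between mice and not counting error set the precision of all but Ciita and the lowest values of H2-Aa and H2-Eb1. Replicates are separate mice.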

Additional observations from a re-analysis of the deposited data

Results flagged for a closer look

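H2-Aa, H2-Ab1, H2-Eb1 and Cd74 stood out because their 5xFAD effect differed between ABX and GF mice by a test of the difference itself. The log2 difference of effects was 5.34 for H2-Aa, 3.33 for H2-Ab1, 5.53 for H2-Eb1 and 2.97 for Cd74, where edgeR called 1.76% of all genes. With voomWithQualityWeights none of these genes passed (adjusted p from 0.0887 to 0.143). None differed by a called amount between ABX and GF 5xFAD mice. Within ABX mice alone, H2-Aa of every 5xFAD mouse lay above every WT mouse, where 6.92% of all genes did not overlap.

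Of 35 sets of a gene and a group with 4 to 6 mice, 2 held a mouse far from the others, where chance gives about 1 in 20. In ABX WT mice, mouse WT_ABX_911 had -1.57 log2 CPM of H2-Eb1 against 0.60 to 1.38 in the other 4, and the gap took 0.733 of the range. Mouse WT_ABX_932 had -0.46 log2 CPM of Ciita against -1.93 to -1.57, with a gap of 0.753 of the range. Both rest on few reads.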

How the results depend on the processing

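No paired analysis was possible because the replicate numbers are the numbers of single mice and no 2 groups share one. Of 3234 values of the 7 genes under alternatives, 3127 kept their direction and side of the threshold, 32 lost and 63 gained a call, and 12 changed sign. Leaving out each mouse was counted for every comparison, also where the mouse was in neither group and the fold change could hardly move.

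With at least 10 counts in every library, which leaves H2-Aa, H2-Eb1 and Ciita untested, the calls for 5xFAD against WT were 2 in SPF and 3 in ABX mice, and 2 each for GF against SPF and ABX against GF in WT mice and for the effect in ABX against GF. With only the groups compared in the fit, they were 1 for 5xFAD against WT in GF mice, 6 for GF against SPF and 0 for ABX against GF in 5xFAD mice, and 2 for the effect in ABX against GF. GF against SPF in 5xFAD mice had 4 calls with no low-count filter, with DESeq2 and over 26 mice. ABX against SPF in 5xFAD mice had 1 with DESeq2 and 2 with voomWithQualityWeights and over 26 mice. Library size alone left 0 for ABX against GF in 5xFAD mice, and voomWithQualityWeights 0 for the effect in ABX against GF. Co-variation over 26 mice passed in 12 pairs, and exact p-values under 0.05 numbered 22 to 38 without single mice.

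Without 1 mouse at a time, the calls for 5xFAD against WT ranged from 3 to 5 in SPF, 1 to 3 in GF, 6 to 7 in ABX mice and 6 to 7 on average. Those within 5xFAD mice ranged from 1 to 4 for GF against SPF, 0 to 2 for ABX against SPF and 0 to 2 for ABX against GF. In WT mice they ranged from 3 to 6 for GF against SPF and 4 to 6 for ABX against GF, and for the effect in ABX against GF from 2 to 4. The other comparisons stayed at 0.

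Signs changed in values that were not called. Ciita had -0.028 for GF against SPF in WT mice with voomWithQualityWeights. Without single mice, Ciita ranged from -0.023 to 0.74 for ABX against GF in 5xFAD mice and from -0.29 to 0.85 for the effect in GF against SPF, and H2-Ab1 from -0.019 to 0.25 for ABX against SPF in WT mice. For the effect in ABX against GF, H2-DMa ranged from -0.12 to 0.055 and H2-DMb1 from -0.046 to 0.12.

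Library size alone moved the median of all genes for 5xFAD against WT in GF mice by -0.12 on the log2 scale, and turned the calls from 1442 higher and 949 lower to 1107 higher and 1919 lower. The split also moved from 571 and 128 to 533 and 215 in SPF mice, from 1445 and 762 to 1160 and 1311 in ABX mice, and from 1066 and 896 to 626 and 1295 for GF against SPF in 5xFAD mice. It moved from 692 and 929 to 1173 and 554 for ABX against GF in 5xFAD mice, from 140 and 129 to 209 and 69 for the effect in ABX against GF, and on average from 2183 and 1655 to 1756 and 2972. The cause of these changes was not tested.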

Other observations

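Of 8 microglia markers, 3 fell in SPF 5xFAD against WT mice and 4 each in GF and ABX mice, and none rose by edgeR. Among all 15298 tested genes, 128 (SPF), 949 (GF) and 762 (ABX) were called lower. P2ry12, a purinergic receptor, fell by 0.44, 0.62 and 0.59 on the log2 scale for SPF, GF and ABX, and Tmem119 by 0.50, 0.65 and 0.37. Siglech had -0.08, -0.05 and -0.19 without passing. Of the 4 monocyte markers tested, Ccr2, a chemokine receptor, rose by 2.17 on the log2 scale in ABX mice, and values of 0.46 (SPF) and 0.68 (GF) did not pass. Chil3 was also called higher in SPF and ABX mice, and it had 0 reads in 23 of the 28 libraries, the others being the 3 SPF 5xFAD mice, mouse FAD_ABX_1151 and 1 SPF WT mouse. Ly6c2 had at most 19 reads in a library. Cd4, which macrophages can also express, was called higher in ABX mice and reached 102 reads in a library, while Cd3e had at most 1 read.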
